A study of Mus musculus with 16 samples.

Results

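The granulocyte granule genes Mpo, Elane, Prtn3, Ctsg, Lcn2, Ltf, Camp, Ngp, S100a8 and S100a9 were examined in sorted mouse B cells. They were found by their symbol, and all 10 were present among the 27928 genes of the table. The members were chosen by their values in these libraries, since Mpo and other granulocyte transcripts were already known to be high in cKO MZ B cells. Their levels there, and the comparisons cKO against WT in MZ and FO against MZ in cKO, are therefore given as a description with no test. The rule separated Mpo, Elane and Prtn3 as early genes from the late genes. Ctsg is listed on its own because its protein shares the primary granule with the early trio.

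RNA had been sequenced from follicular (FO, CD21lo CD23hi) and marginal zone (MZ, CD21hi CD23lo) B cells sorted from the spleen after negative selection of B cells. The WT mice were C57BL/6, and the cKO mice, of the same labelled strain, carried floxed alleles (fl/fl) of Gtf2i, which encodes the transcription factor TFII-I, and a Cre transgene whose promoter is active in the B lineage, so that the deletion is limited to cells of that lineage. There were 2 libraries in each of the 4 groups (WT FO, WT MZ, cKO FO and cKO MZ), and no animal was assigned to a library in the labels, so the spread between libraries may be technical in part.

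Neutrophils build their granules in sequence during maturation in the bone marrow. Promyelocytes make myeloperoxidase and the serine proteases of the primary (azurophilic) granules, whereas myelocytes and metamyelocytes make the contents of the secondary (specific) granules, and calprotectin (S100A8 and S100A9) accumulates in the cytosol of later stages. Mature B cells are not known to make these proteins, and the spleen of the mouse also holds granulocytes, their precursors and red cell precursors. In bulk RNA, fewer cells of a type and less RNA per cell cannot be told apart.

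The genes lie on 6 chromosomes, and several are neighbours. In GENCODE release M21 for GRCm38, Prtn3 (chromosome 10, 79874476 to 79883174, plus strand) ends 3073 bp before Elane (79886247 to 79888215, plus strand). S100a8 (chromosome 3, 90668978 to 90670035, plus strand) and S100a9 (90692632 to 90695721, minus strand) are 22597 bp apart. Camp (109847379 to 109849617, minus strand), Ngp (110419747 to 110423012, plus strand) and Ltf (111019271 to 111042767, plus strand) fall within 1.2 Mb of chromosome 9. Mpo is on chromosome 11 (87793581 to 87804413, plus strand), Ctsg on chromosome 14 (56099881 to 56102574, minus strand) and Lcn2 on chromosome 2 (32384633 to 32388252, minus strand).

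Prtn3 overlaps Plppr3 and Mpo overlaps Gm11505, each on the opposite strand. The strand setting of the counting is not given in the sources used here, so reads of these pairs cannot be told apart with certainty. Plppr3 itself had between 154 and 241 normalized counts in the 8 libraries and 198 in cKO MZ replicate 1, and Gm11505 had 0 reads there.

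Promoter sequence is shown for the 3 early genes, Ctsg and the late genes Ltf and Ngp, to show where the letters bound by myeloid factors lie in genes that were all highest in a single library. RefSeq (GRCm38.p6) gave a start for all 10. In the 250 bases before that start, on both strands, the letters GGAAGT, the core bound by the ETS family factor PU.1 of myeloid and B cells, were found for 6 members (Mpo, Elane, Prtn3, Ctsg, S100a8 and S100a9), against 19.7% of 32851 promoters. The letters AACGG of the Myb family were found for Elane and Prtn3, against 14.5%. The letters TTNNGNAA of the C/EBP family, which includes regulators of secondary granule genes, were found for 5 members (Lcn2, Ltf, Ngp, S100a8 and S100a9), against 36.8%. The motifs were picked with these sequences in view, and a match is a description of letters, not a site. Each sequence below runs 5′ to 3′ on the strand of its gene and stops before the earliest GENCODE exon in the window. Capitals mark GGAAGT in the early genes and Ctsg, and either orientation of TTNNGNAA in Ltf and Ngp.
Mpo, chr11:87793534-87793580, plus strand: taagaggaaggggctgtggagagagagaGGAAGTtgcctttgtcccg
Elane, chr10:79886062-79886246, plus strand: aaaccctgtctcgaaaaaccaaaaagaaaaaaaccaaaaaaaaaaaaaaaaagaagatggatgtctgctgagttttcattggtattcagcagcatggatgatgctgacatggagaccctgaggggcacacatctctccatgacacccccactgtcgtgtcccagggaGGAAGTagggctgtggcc
Prtn3, chr10:79879417-79879613, plus strand: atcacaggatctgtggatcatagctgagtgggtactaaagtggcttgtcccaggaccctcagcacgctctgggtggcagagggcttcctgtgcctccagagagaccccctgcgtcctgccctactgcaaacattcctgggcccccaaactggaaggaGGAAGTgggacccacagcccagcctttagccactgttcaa
Ctsg, chr14:56102575-56102824, minus strand: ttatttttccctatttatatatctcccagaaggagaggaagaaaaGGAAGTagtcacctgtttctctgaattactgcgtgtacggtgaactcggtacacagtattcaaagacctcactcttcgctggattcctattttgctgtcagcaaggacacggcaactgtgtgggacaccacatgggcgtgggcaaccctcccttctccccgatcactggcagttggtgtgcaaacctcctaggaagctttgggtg
Ltf, chr9:111019042-111019270, plus strand: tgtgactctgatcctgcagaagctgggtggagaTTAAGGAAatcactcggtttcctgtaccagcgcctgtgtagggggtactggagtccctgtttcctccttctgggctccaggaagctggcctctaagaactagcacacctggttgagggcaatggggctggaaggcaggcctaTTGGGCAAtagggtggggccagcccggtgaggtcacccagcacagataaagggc
Ngp, chr9:110419558-110419746, plus strand: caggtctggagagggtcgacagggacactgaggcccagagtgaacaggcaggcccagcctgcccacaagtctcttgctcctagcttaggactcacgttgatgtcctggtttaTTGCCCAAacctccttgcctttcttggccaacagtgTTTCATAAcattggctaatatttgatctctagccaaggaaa

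GGAAGT began 222 bases before the RefSeq start in Mpo, 83 in Elane, 93 in Prtn3 and 205 in Ctsg. The matches of the neighbours Elane and Prtn3 thus lay at a similar distance. Of the TTNNGNAA matches in Ltf, those shown began 217 and 75 bases before the start.

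The values are normalized counts, that is whole reads divided by the size factor of the library. The libraries had between 21546552 and 25083552 reads on genes, and 1 read was worth between 0.906 and 1.12 normalized counts, so a value near 1 is a single read. Gtf2i, the deleted gene, was at 2040 and 1992 (WT FO), 2864 and 2471 (WT MZ), 1523 and 1531 (cKO FO) and 1782 and 1889 normalized counts (cKO MZ replicates 1 and 2), and within a subset the cKO libraries were the lower ones. In the limma fit described below, the log2 difference of cKO from WT was -0.40 in FO (limma adjusted p = 0.989) and -0.54 in MZ (0.363). Gtf2i was thus not called in either subset at the cutoffs given there. Some libraries stood apart. Counting genes at least 8-fold over the highest of the other 7 libraries, on the scale of the normalized count plus 1, there were 86 in cKO MZ replicate 2, 27 in cKO MZ replicate 1, 8 in WT MZ replicate 1 and at most 1 in the other 5. Of the 27 genes of cKO MZ replicate 1, 7 were members and 6 were on a list of 11 erythroid genes, with Kel, which is off that list and known from red cells, also among them, while no member was among those of another library.

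All 10 genes were highest in cKO MZ replicate 1. The level there was between 3.34-fold (Ctsg) and 21.7-fold (S100a9) over the next highest library, with a median of 12.7-fold. The next highest library was cKO FO replicate 2 for Mpo, Prtn3, Ctsg and Lcn2, cKO MZ replicate 2 for Ltf, Camp and S100a9, WT FO replicate 1 for Elane and S100a8, and WT MZ replicate 1 for Ngp. Outside cKO MZ replicate 1 the early genes, Ctsg and Lcn2 had at most 12.1 normalized counts, and the other late genes at most 27.8. Of the 70 values in the other 7 libraries, 31 were at or under 3 reads and 5 of these were at 0, which allows up to 3 reads.

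**Figure D1:**
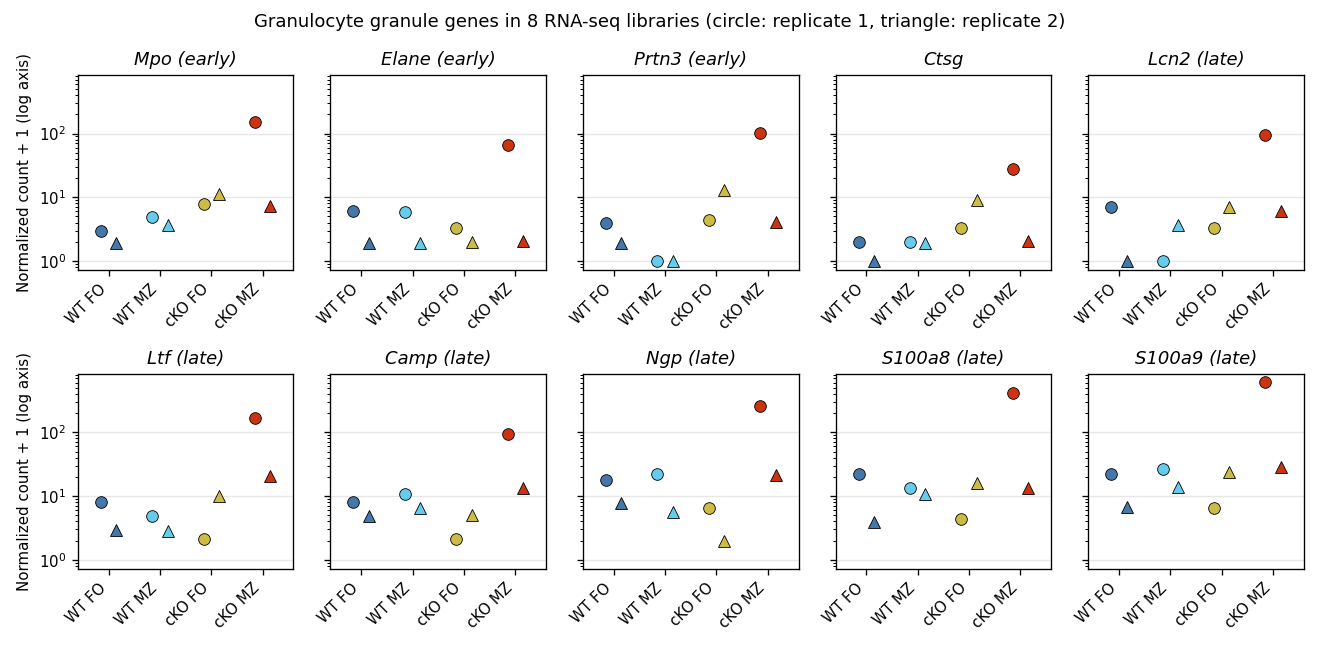
Normalized count plus 1 (log axis) of each granule gene in the 4 groups, with a circle for replicate 1 and a triangle for replicate 2 of each group. In every panel the circle of cKO MZ is the highest point, from 26.9 normalized counts for Ctsg to 604 for S100a9, and the triangle of cKO MZ is at most 27.8.

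Mpo encodes myeloperoxidase, the haem enzyme of primary granules that makes hypochlorous acid. Mpo was at 2.0 and 0.951 (WT FO), 3.85 and 2.72 (WT MZ), 6.72 and 10.1 (cKO FO) and 149 and 6.19 normalized counts (cKO MZ replicates 1 and 2). The cKO MZ libraries thus differed by 24.0-fold (exact 95% interval 10.8 to 66.5, for counting error only), and their mean was 77.3 ± 101 (SD, n = 2). Leaving out cKO MZ replicate 1, the 3 other cKO libraries were each above the 4 WT libraries, but at no more than 10 reads.

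Elane and Prtn3 encode neutrophil elastase and proteinase 3, serine proteases of the same granule. Elane was at 4.99 and 0.951 (WT FO), 4.82 and 0.906 (WT MZ), 2.24 and 1.01 (cKO FO) and 65.8 and 1.03 normalized counts (cKO MZ replicates 1 and 2). Its level in cKO MZ replicate 2 was a single read, and replicate 1 was 13.2-fold over the highest other library (exact 95% interval 5.37 to 41.9). Prtn3 was at 2.99 and 0.951 (WT FO), 0 and 0 (WT MZ), 3.36 and 12.1 (cKO FO) and 99.7 and 3.09 normalized counts (cKO MZ). Apart from cKO MZ replicate 1, Prtn3 was highest in cKO FO replicate 2, the library in which Mpo was also next highest, whereas Elane had 1 read in that library.

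Ctsg encodes cathepsin G, which is stored with the early proteases. Ctsg was at 0.998 and 0 (WT FO), 0.963 and 0.906 (WT MZ), 2.24 and 8.05 (cKO FO) and 26.9 and 1.03 normalized counts (cKO MZ replicates 1 and 2). It was the lowest member in cKO MZ replicate 1 and the one with the smallest distance to the next library (3.34-fold, exact 95% interval 1.48 to 8.51). Its mean over the 8 libraries, 5.14 normalized counts, was under the minimum of 10 that was set for the tests.

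Of the secondary granule genes, Lcn2 encodes lipocalin 2, which binds bacterial iron carriers, and Ltf encodes the iron binding lactoferrin. Lcn2 was at 5.99 and 0 (WT FO), 0 and 2.72 (WT MZ), 2.24 and 6.04 (cKO FO) and 92.7 and 5.16 normalized counts (cKO MZ replicates 1 and 2). Ltf was at 6.99 and 1.90 (WT FO), 3.85 and 1.81 (WT MZ), 1.12 and 9.06 (cKO FO) and 167 and 19.6 (cKO MZ). In cKO MZ replicate 2 too, Ltf was above both WT MZ libraries, at 19.6 against at most 3.85 normalized counts, and the distance between the cKO MZ replicates was 8.55-fold (exact 95% interval 5.31 to 14.6).

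Camp encodes the precursor of the antimicrobial peptide cathelicidin, and Ngp encodes neutrophilic granule protein. Camp was at 6.99 and 3.81 (WT FO), 9.63 and 5.43 (WT MZ), 1.12 and 4.03 (cKO FO) and 91.7 and 12.4 normalized counts (cKO MZ replicates 1 and 2). Ngp was at 17.0 and 6.66 (WT FO), 21.2 and 4.53 (WT MZ), 5.60 and 1.01 (cKO FO) and 258 and 20.6 (cKO MZ). For Ngp both cKO FO libraries were below both WT FO libraries, whereas for Camp they overlapped, and for Ngp the cKO MZ replicate 2 and WT MZ replicate 1 libraries were nearly equal.

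S100a8 and S100a9 encode the subunits of calprotectin, a calcium and zinc binding complex of the cytosol. S100a8 was at 21.0 and 2.85 (WT FO), 12.5 and 9.96 (WT MZ), 3.36 and 15.1 (cKO FO) and 414 and 12.4 normalized counts (cKO MZ replicates 1 and 2). S100a9 was at 21.0 and 5.71 (WT FO), 26.0 and 12.7 (WT MZ), 5.60 and 23.2 (cKO FO) and 604 and 27.8 (cKO MZ). The neighbours moved together, with replicate 1 of WT FO above replicate 2 and replicate 2 of cKO FO above replicate 1 for both. In cKO MZ the mean of S100a9 was 316 ± 407 normalized counts (SD, n = 2), so that the spread exceeded the mean, as it did for 10 of the 10 members.

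Between genes, levels were compared per kilobase of exon. In cKO MZ replicate 1 the order of normalized counts per kb was S100a9 (1157), S100a8 (596), Ngp (211), Camp (121), Elane (66.9), Prtn3 (57.5), Ltf (48.5), Mpo (43.4), Lcn2 (35.3) and Ctsg (26.1). The late genes thus took both the highest places and, with Ltf and Lcn2, places among the early genes. The medians of the other 7 libraries also began with S100a9 (40.1 normalized counts per kb) and S100a8 (17.8), followed by Camp (7.17) and Ngp (5.45), with the other 6 genes between 0.966 and 1.73. The medians of these 6 were at most 3.85 normalized counts, so their order rests on few reads.

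Summed over genes, the early trio reached 314 normalized counts in cKO MZ replicate 1 against 2.85 to 23.2 in the other libraries. The 6 late genes had 1628 in cKO MZ replicate 1 and between 19.0 and 98.0 elsewhere. The early sum was 13.6-fold over the highest other library, cKO FO replicate 2 (exact 95% interval 8.88 to 21.7), and the late sum 16.6-fold over its own, cKO MZ replicate 2 (13.5 to 20.7). Early and late genes were thus high in the same library, by factors whose counting intervals overlapped. As a share of all reads on genes, the 10 members took 88.3 of every 1000000 reads in cKO MZ replicate 1, against 1.00 to 4.77 in the other 7 libraries.

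The balance of early and late reads did differ among libraries. Early reads were 16.2% of early and late reads in cKO MZ replicate 1 (exact 95% binomial interval 14.6 to 17.9). In cKO MZ replicate 2 they were 9.52% (4.66 to 16.8), and in the 4 WT libraries between 8.89% and 12.0%. The cKO FO libraries had the highest early shares, at 39.3% (21.5 to 59.4) and 28.4% (18.9 to 39.5), on 28 and 81 reads. The intervals of both cKO FO libraries lay above that of cKO MZ replicate 1, whereas that of cKO FO replicate 1 overlapped that of WT FO replicate 2 and that of cKO FO replicate 2 overlapped those of all 4 WT libraries. With the other 7 libraries summed, 70 of 458 reads were early, or 15.3% (12.1 to 18.9). That sum joins the cKO FO shares of 39.3% and 28.4% with shares of at most 12.0% in the rest. Its closeness to cKO MZ replicate 1 is therefore not that of any single library. These intervals cover counting error only, since PCR copies were not told apart from molecules.

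**Figure D2:**
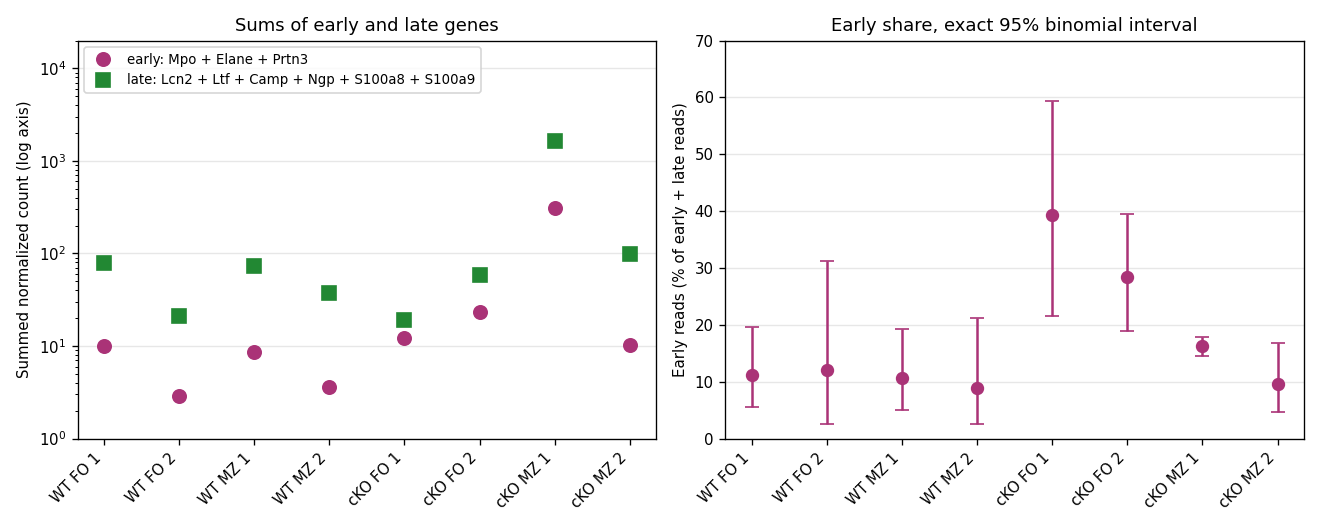
Left, summed normalized counts (log axis) of the 3 early (circles) and 6 late genes (squares) in each library. Right, early reads as a percentage of early plus late reads, with exact 95% binomial intervals. Both sums peak in cKO MZ 1 at 314 and 1628, while the early share is highest in cKO FO 1 and cKO FO 2 at 39.3% and 28.4%.

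Within the late genes, S100a8 and S100a9 together held 62.5% of the reads in cKO MZ replicate 1 (exact 95% binomial interval 60.1 to 64.9) and 41.1% in cKO MZ replicate 2 (31.1 to 51.6). These intervals did not overlap, so the proportions of the late genes differed between the cKO MZ libraries beyond counting error. In the other 6 libraries the share was between 40.9% and 65.5%.

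The comparison of cKO with WT in FO B cells asked whether the genes differed with the deletion of Gtf2i outside the MZ subset. Its cKO FO libraries also stand in the contrast of FO with MZ in cKO that chose the members, so its p-values are not free of that choice. Log2(normalized count + 1) was fitted by limma to all 8 libraries, using 14761 genes whose mean was at least 10 normalized counts, and a call needed a difference of 1.5-fold or more and a Benjamini-Hochberg adjusted p no higher than 0.05. Of the members 9 passed this minimum, but 6 of them only through cKO MZ replicate 1, since Ngp, S100a8 and S100a9 alone would have passed without it. The members were therefore also counted in a fit with no minimum, which takes in all 10. With no minimum, limma called 0 of the 10 members, beside 0.0358% of all genes, and 0 had an unadjusted p under 0.05. With the minimum, 0 of the 9 were called by limma, and 0 by edgeR on the recovered reads, beside 0.0677% of all genes (limma). DESeq2 on the recovered reads, run with no minimum, called 0 members, beside 0.161% of the 14933 genes that it gave an adjusted p. Ctsg was given none.

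In this comparison Mpo, Prtn3, Ctsg and the late gene Ngp had the largest differences. The log2 difference was 1.93 for Mpo (SE 1.23, limma adjusted p = 1.0), 1.44 for Prtn3 (SE 1.39) and -1.69 for Ngp (SE 1.24), and with no minimum 1.94 for Ctsg (SE 1.15). The remaining members were between -0.92 (Camp) and 0.85 (Lcn2), and the median of the 10 was -0.0018, against 0 for all genes. The error of Mpo depended on the cKO MZ libraries, which share in the estimate of the spread. Its unadjusted limma p was 0.156 in the fit of 8 libraries and 0.0164 with the 4 FO libraries alone (SE 0.58). Both fits hold Mpo only through cKO MZ replicate 1, without which its mean was 4.64 normalized counts, under the minimum of 10. These unadjusted p-values therefore carry the choice of the members. For Ngp the unadjusted limma p was 0.211, and 0.0286 with a replicate block. The limma p adjusted over all genes was 1.0 for each of these fits of Mpo and Ngp. The cKO FO and WT FO libraries did not overlap for 4 of the 10 members, higher in cKO for Mpo, Prtn3 and Ctsg and lower for Ngp, beside 24.0% of the 14761 genes. An exact permutation test of 2 libraries against 2 cannot give a two-sided p below 0.333. No member was called after adjustment, which does not show that the groups were alike.

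The genotypes also differed in sex-linked transcripts, whose part in these values was not tested. Xist had 25930 to 47002 normalized counts in the WT libraries, 14748 in cKO FO replicate 1 and 21.7 to 89.7 in the remaining cKO libraries. Ddx3y, on Y, ranged up to 6.34 in WT B cells and from 2682 to 5514 in cKO B cells.

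Between FO and MZ B cells of WT mice, limma with no minimum called 0 of the 10 members, beside 5.76% of all genes, and 0 had an unadjusted p under 0.05. With the minimum, 0 of the 9 were called by limma, and 0 by edgeR on the recovered reads, beside 12.0% of all genes (limma). DESeq2 with no minimum called 0 members, beside 11.7% of the 16016 genes that it gave an adjusted p, again without Ctsg. The WT MZ libraries also stand in the contrast of cKO with WT in MZ that chose the members. The log2 differences ran from -0.81 for Mpo (SE 1.23, limma adjusted p = 0.716) to 1.48 for Prtn3 (SE 1.39, limma adjusted p = 0.534), with a median over the 10, with no minimum, of -0.18 against 0 for all genes. Mpo and Prtn3 passed the minimum only through cKO MZ replicate 1, which also shares in these SEs. With the 4 WT libraries alone the SE was 0.58 for Mpo and 0.69 for Prtn3 (limma adjusted p = 0.454 and 0.266). These p-values therefore carry the choice of the members too. The 2 subsets did not overlap for Mpo, higher in MZ, and Prtn3, higher in FO where MZ was at 0, that is for 2 of the 10 members beside 55.3% of all tested genes. Prtn3 had at most 3 reads in each of these 4 libraries, so no fold is given.

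The 9 tested members varied more between replicates than the median of all tested genes, which were not matched to them in level. The fit of 8 libraries includes the cKO MZ libraries, whose values led to the choice of the members. The residual SD of the fit, on the log2 scale, had a median of 1.77 over the 9 members and 0.186 over all genes. Without cKO MZ replicate 1 it was 1.11 for the members and 0.192 for all genes, and it fell from 1.58 to 0.37 for Mpo. In WT B cells the FO replicates of S100a8, at 21.0 and 2.85 normalized counts, differed by more than its mean difference between subsets. The same held for S100a9 (21.0 and 5.71) and Ngp (17.0 and 6.66), among other members, but not for Mpo and Prtn3.

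Between cKO and WT MZ B cells, a comparison that chose the members, the log2 difference of the 9 members with a mean of at least 10 was between 1.81 (Elane) and 4.34 (Prtn3), with a median of 2.78 against -0.015 for all genes. Without cKO MZ replicate 1 the median was 0.76 and Elane changed sign to -0.71, while Ltf, at 2.48, and Prtn3, at 2.03, stayed highest. That fit has cKO MZ replicate 2 alone in its group, with 1 read of Elane and 3 of Prtn3. The groups did not overlap for 7 of the 10 members, the exceptions being Elane, Ngp and S100a8, beside 34.5% of all tested genes.

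Between FO and MZ B cells of cKO mice, which also chose the members, the log2 difference of the same 9 was between -4.36 (Ngp) and -1.43 (Prtn3), all lower in FO. Without cKO MZ replicate 1 the median changed from -3.15 to -0.67. The early genes Mpo, Elane and Prtn3 then had differences of 0.36, 0.33 and 0.88, higher in FO, whereas the late genes kept negative values, from -2.57 (Ngp) to -0.37 (Lcn2). Only cKO MZ replicate 2 then stood for MZ, with 6, 1 and 3 reads of Mpo, Elane and Prtn3 and 5 of Lcn2. The sign of these differences therefore rests on few reads of a single library. FO and MZ did not overlap for 4 members, Ltf, Camp, Ngp and S100a9, beside 65.0% of all tested genes.

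**Figure D3:**
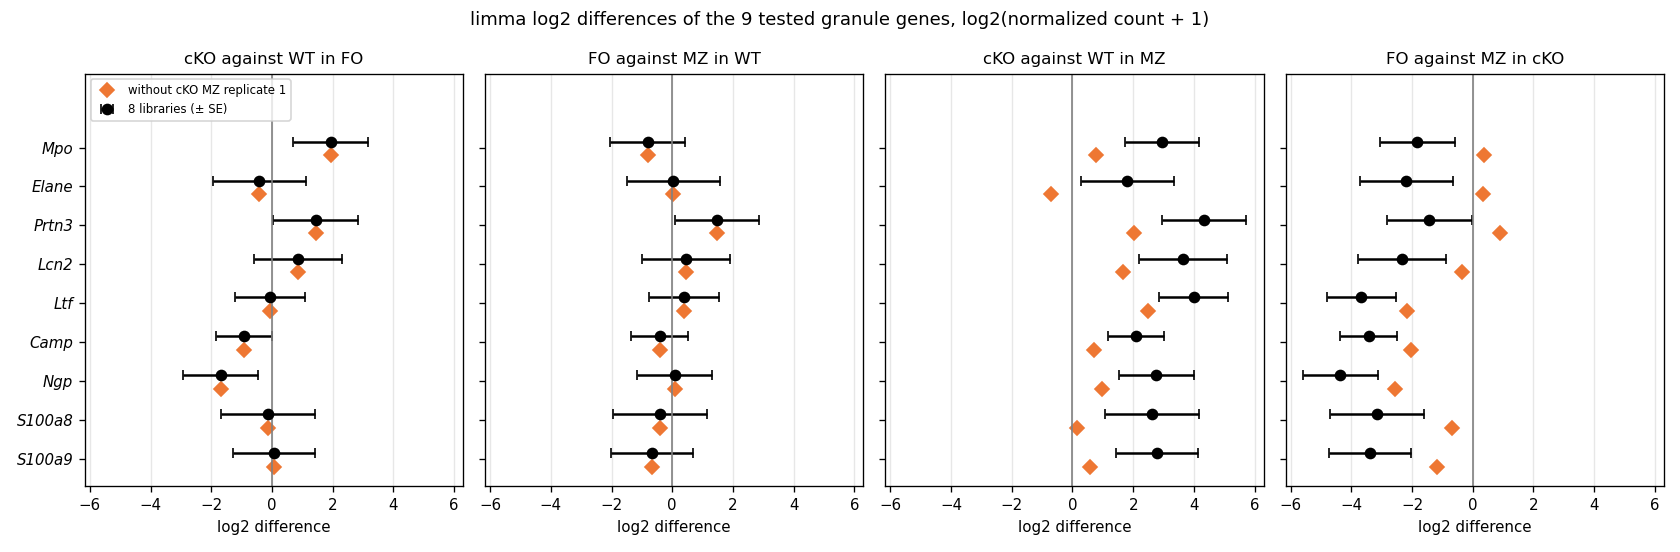
Log2 differences (x axis, log2 of the normalized count + 1) of the 9 granule genes with a mean of at least 10 in the 4 comparisons. Black circles with bars are the limma fit of 8 libraries ± SE, and orange diamonds the fit without cKO MZ replicate 1, which moves the median from 2.78 to 0.76 in the MZ genotype comparison and from -3.15 to -0.67 between the cKO subsets.

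Set against each other, the cKO MZ libraries agreed closely for most genes, with a Pearson correlation of 0.981 across genes on the log2 scale, and the members lay off the line of equal counts. Each was as close to a WT MZ library. The correlation was 0.981 for cKO MZ replicate 1 with WT MZ replicate 2, and 0.983 for cKO MZ replicate 2 with WT MZ replicate 1. By the ratio of cKO MZ replicate 1 to the highest other library, S100a9 ranked 3, S100a8 5, Mpo 12, Lcn2 14, Ngp 19, Elane 21, Ltf 27, Prtn3 29, Camp 35 and Ctsg 116. Among the other genes with the largest ratios were Gm4734, Serpina3e-ps, Kel, Hba-a2, Slc4a1, Btnl10, Trim10, Hba-a1 and Hbb-bs. Gm4734 reached 708 normalized counts there and no more than 4.48 elsewhere. Kel, Slc4a1 and the globin genes Hba-a1, Hba-a2 and Hbb-bs are known from red cells and their precursors.

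**Figure D4:**
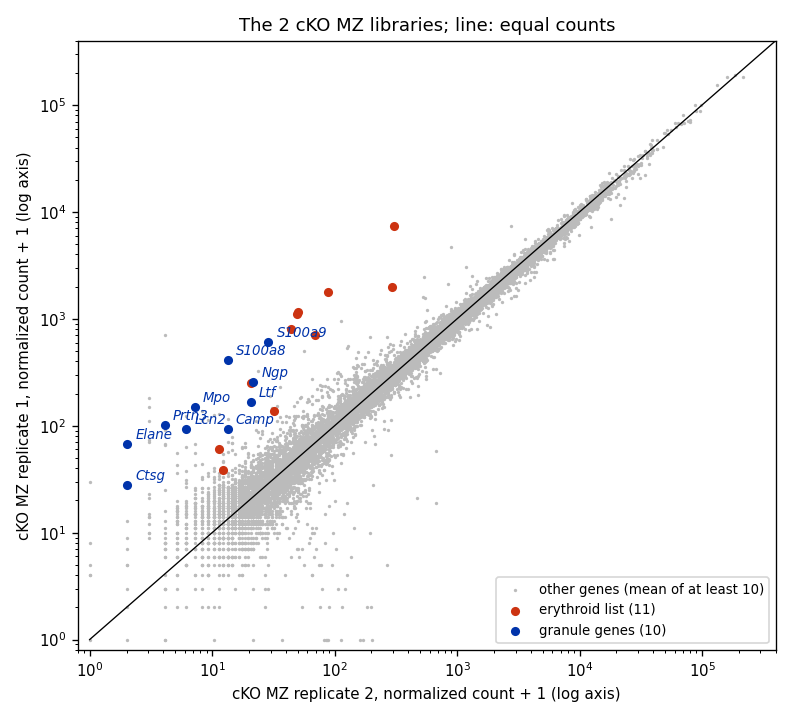
Normalized count plus 1 of each gene in cKO MZ replicate 2 (x axis) and replicate 1 (y axis), both on log axes, with the granule genes in blue, the 11 erythroid genes in red and the line of equal counts. The 10 granule genes and the 11 erythroid genes lie above the line, while the bulk of the genes follow it.

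Erythroid genes peaked in the same library as the granule genes. All 11 of the list were highest in cKO MZ replicate 1, and 8 of them were at least 4-fold over the next library. Their summed level (normalized counts) was 15357 and 967 in the cKO MZ replicates, with 164 and 484 (WT MZ), 472 and 673 (WT FO), and 364 and 1439 (cKO FO) in the others. In cKO FO replicate 2, where Mpo, Prtn3, Ctsg and Lcn2 were next highest, the erythroid sum was also next highest. In WT the sums did not move together. The 10 members summed to 89.8 and 23.8 (WT FO) and 82.8 and 41.7 normalized counts (WT MZ, replicates 1 and 2). They were thus lower in replicate 2, where the erythroid sum was higher. The part of RNA from red cells and their precursors in the granule gene values was not tested.

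Some other genes of the granulocyte lineage were also highest in that library. Of 9 other promyelocyte genes in the table, 5 were highest in cKO MZ replicate 1, and their sum was 3707 normalized counts against 2494 to 7533 elsewhere, with Serpinb1a and Gfi1, which B cells also express, holding most of it. Ms4a3, a marker of granulocyte and monocyte progenitors, had 18.9 normalized counts against at most 4.53, Cebpe, which encodes a regulator of secondary granule genes, 5.98 against at most 4.12, and Fcnb 1.99 against 0. The values of Cebpe and Fcnb were few reads. Other genes of this list were not highest there. Cebpa had 7.97 normalized counts against up to 13.97 elsewhere, and Myb 230 against up to 495. Gfi1 had 127.6 against up to 491.5, and Serpinb1a 3276 against up to 6767. Of 21 other late granulocyte genes, 13 were highest there, and 2 (Chil3 and Mmp8) were at least 4-fold over the next library. Their sum was 2134 normalized counts against 1049 to 1643. The share of all genes that were highest in cKO MZ replicate 1 was not counted.

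Chil3, a chitinase-like protein of granulocytes and macrophages, reached 113 normalized counts in cKO MZ replicate 1 against at most 24.7 elsewhere, and Mmp8, the collagenase of secondary granules, 28.9 against at most 3.81. Csf3r, the receptor of the granulocyte growth factor G-CSF, had 62.8 against at most 17.5, and Hp, which encodes haptoglobin, 61.8 against at most 19.0. Genes of mature neutrophils varied there. Mmp9, a gelatinase, had 31.9 normalized counts against at most 10.9, and Cd177, a surface protein of neutrophils, 23.9 against at most 10.5. Ly6g was at 2.99 in cKO MZ replicate 1, 1.03 in replicate 2 and 0 in the other 6 libraries, and Cxcr2, a chemokine receptor, had 12.96 against at most 7.25. Retnlg had 32.9 against 35.2 in WT FO replicate 2, and Lyz2 (lysozyme), also of macrophages, 559 against 523 in WT MZ replicate 2. Beside the 13 of 21 late granulocyte genes that were highest there, others were not. Il1r2 had 3.99 against 24.9 in WT FO replicate 1, and Itgam 33.9 against 54.3 in WT MZ replicate 2. Padi4 had 25.9 against 28.9 in WT MZ replicate 1, and Fpr2 1.99 against 2.72 in WT MZ replicate 2.

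Of these lists, limma called Gfi1 higher in FO than in MZ among 4 tested promyelocyte genes in cKO (log2 difference 1.59), and Pglyrp1 higher and Trem1 lower in FO among 11 tested late granulocyte genes in both WT and cKO, beside 12.0% (WT) and 13.7% (cKO) of all genes. Trem1, an amplifying receptor of myeloid cells, differed by -2.95 in WT (SE 0.43, limma adjusted p = 0.00386) and -2.88 in cKO on the log2 scale. Pglyrp1, a peptidoglycan recognition protein, differed by 0.75 in WT (SE 0.19, limma adjusted p = 0.0355) and 0.86 in cKO. The call of Pglyrp1 was lost under 8 of 18 alternatives in WT (limma, edgeR or DESeq2 adjusted p between 0.00212 and 0.217) and 4 in cKO, that of Gfi1 under 4, 3 of them with a single library of cKO FO or cKO MZ left out (replicates 1 and 2 of FO, replicate 1 of MZ), and that of Trem1 under 1 in WT. For cKO against WT, 0 genes of either list were called in FO or in MZ B cells by limma, beside 0.0677% and 0.0339% of all genes.

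Markers of other cells were less distinct. The 12 genes of eosinophils, basophils and mast cells summed to 202 normalized counts in cKO MZ replicate 1 against 34.0 to 97.8, with Prg2 and Prss34 at 65.8 and 26.9 against at most 19.1 and 4.99. The 18 monocyte and macrophage genes summed to 2746 against 968 to 2574, the 9 dendritic cell genes to 520.3 against 215 to 476, the 10 T and NK cell genes to 840.2 against 812 to 1401, and the 5 platelet and megakaryocyte genes to 166 against 118 to 220. The 5 plasma cell genes summed to 26780 against 14865 to 41216, and the 7 B cell genes to 268204 against 212092 to 318048. The labelled B cell identity thus held in each library by this list.

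**Figure D5:**
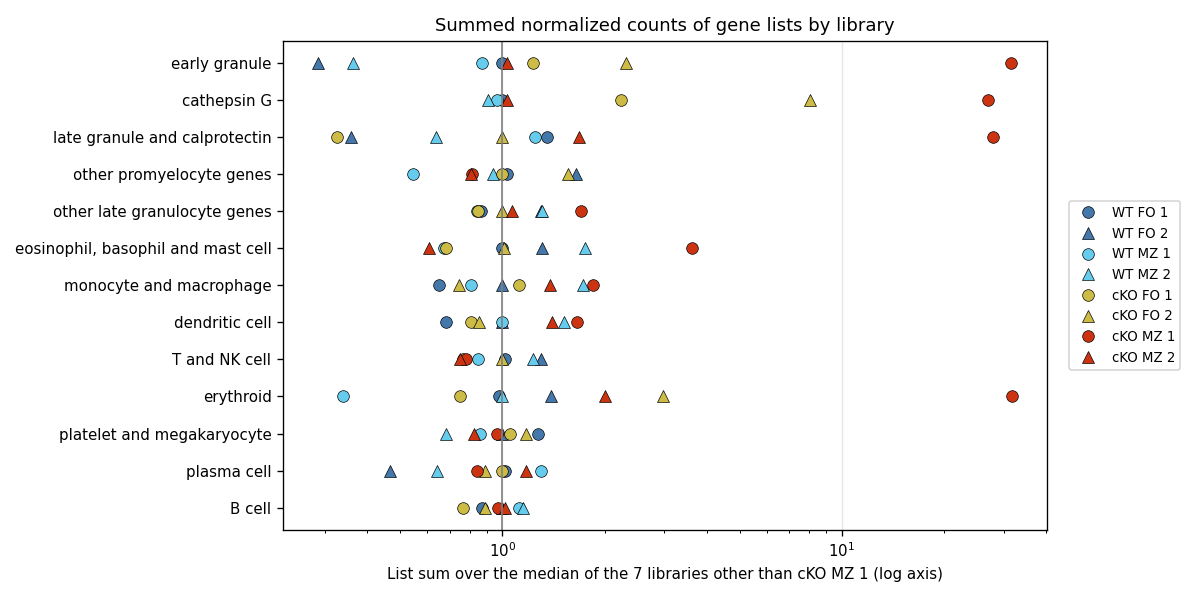
Summed normalized counts of each gene list in each library, divided by the median of the 7 libraries other than cKO MZ 1 (log axis). Red circles (cKO MZ 1) lie far to the right for early, late and erythroid genes (31.5, 27.9 and 31.8) and between 0.779 and 3.62 for the lists without members or erythroid genes. Cathepsin G is at 27.0 in cKO MZ 1, and the value of 0 for cathepsin G in WT FO 2 is not drawn.

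Genes with a pattern most like that of Mpo were ranked by Pearson correlation of log2(normalized count + 1) over the 8 libraries, which share the single high value in cKO MZ replicate 1. Of the genes other than members the highest were Gm46611 (r = 0.958), Anapc16 (0.934), Gm4734 (0.926), Atp5j (0.926), Eef1e1 (0.921), Atp5b, Serpina3e-ps and Rps19-ps3 (0.92 each), Chchd7 (0.914) and Rrp15 (0.912). Anapc16 and Atp5b varied little, from 1428 to 1673 and from 12827 to 14959 normalized counts, whereas Gm46611 had 321 in cKO MZ replicate 1 and at most 28.0 elsewhere. Among the members Prtn3 was most like Mpo (r = 0.896, rank 15 of all genes), then S100a9 (0.889), Lcn2 (0.873), S100a8 (0.866) and Ltf (0.857). Elane (0.809), Camp (0.756) and Ngp (0.667, rank 547) were least alike, and in cKO FO Ngp was below both WT FO libraries where Mpo was above them. These values are a description over 8 libraries.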

How the data were processed

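RNA was sequenced as 50 bp single-end reads after depletion of ribosomal RNA. The submitters' methods name HISAT2, the mm10 genome, featureCounts, HTSeq and DESeq2, with versions and strand setting not given in the sources used here. The authors deposited the signal as normalized counts, reads divided by DESeq2 size factors, in 1 table of 27928 genes for 8 libraries after 256343 blank lines were left out. Multiplied by the size factors, 100% of the values gave whole reads (within 0.001). The 8 ATAC-seq samples were not analysed here.

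Log2(normalized count + 1) was fitted with limma 3.58.1 (R 4.3.3, eBayes with trend) in 1 fit of the 4 groups, for genes with a mean of at least 10, and a call needed 1.5-fold or more and a Benjamini-Hochberg adjusted p no higher than 0.05. The scale understates the change of low genes. The tools were tested on simulated data. Alternatives were a pseudocount of 0.5, no filter, quantile normalization, TMM scaling, the 4 libraries compared, a replicate block, DESeq2 1.42.0 and edgeR 4.0.16 on the recovered reads, 2-fold, and each library left out. A crossed block, and leaving out cKO MZ replicate 1 with WT MZ replicate 1, were chosen after seeing the data. The members and lists were chosen with earlier results of these data known. The named genes are the members, the 10 genes most correlated with Mpo, the 10 with the largest ratio of cKO MZ replicate 1 to the highest other library, genes of the marker lists with at least 10 normalized counts in a library, and Gtf2i, apart from some that are not reported here. Plppr3, Gm11505, Xist, Ddx3y, Ly6g, Cebpe and Fcnb were named after their values were seen. Intervals are exact (Clopper-Pearson) at 95%. Replicates of a group differed by 13.3 to 42.8 times the counting noise (chi-square per degree of freedom over genes). Coordinates are from GENCODE M21 and promoter sequence from RefSeq, both of the GRCm38 (mm10) build.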

Additional observations from a re-analysis of the deposited data

How the results depend on the processing

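The members called stayed at 0 in FO B cells (cKO against WT) and at 0 between FO and MZ B cells of WT mice under every alternative run. Over all genes, cKO against WT in FO gave 10 calls, but 4 with 4 libraries, 24 by DESeq2, 4 without cKO MZ replicate 1 and WT MZ replicate 1, and 4 to 11 with each library left out. FO against MZ in WT gave 1776, but 1014 with 4 libraries, 747 without those MZ libraries, and 1220 to 1628 with each left out. cKO against WT in MZ gave 5, but 48 by DESeq2, 3 without those MZ libraries, and 4 to 7 with each left out. FO against MZ in cKO gave 2026, but 1325 at 2-fold, 965 without those MZ libraries, and 1073 to 2119 with each left out (1210 without cKO FO replicate 1, 1073 and 1348 without cKO MZ replicates 1 and 2). The cause was not tested.

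The replicate numbers share only a number (correlations of same-numbered deviations from -0.296 to 0.591), and with the replicate block 0 members were called in these comparisons of FO libraries and of WT libraries, and 9, 1973, 5 and 2262 genes in the 4 comparisons in that order. With the cKO MZ numbers exchanged, 16 and 12 genes were called for cKO against WT in FO and in MZ.

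In the comparisons that were tested, 25 member values changed sign under an alternative and 299 did not. For cKO against WT in FO, the log2 difference with each library left out ran from -1.23 to 0.39 for Elane, -0.55 to 2.26 for Lcn2, -1.18 to 1.06 for Ltf, -1.39 to 1.12 for S100a8 and -0.88 to 0.99 for S100a9, and for Ltf it was 0.22 by DESeq2 and 0.25 by edgeR. For FO against MZ in WT it ran from -0.77 to 0.85 for Elane, -0.95 to 1.86 for Lcn2, -0.35 to 1.11 for Ltf, -0.92 to 1.08 for Ngp, -1.66 to 0.85 for S100a8 and -1.52 to 0.19 for S100a9. By DESeq2 and edgeR it was -0.12 and -0.11 for Ngp and 0.082 and 0.071 for S100a8, and without both MZ libraries -0.49 for Lcn2. The early and late folds were 14.5 and 17.1 when scaled by the total reads on genes, and the early share in cKO MZ replicate 1 was 17.3% with Ctsg counted as early. With 2 libraries a group and values of few reads, the spread between libraries limits what could be detected for these genes.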
